A study of Arabidopsis thaliana with 6 samples.

Results

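Alternative 5′ splice site bins are stretches of annotated transcripts that lie between a pair of donor sites, so that the stretch stays in the mRNA when the downstream donor is used and leaves with the intron when the upstream donor is used. All rows of the deposited splicing table that its authors typed as alternative 5′ were taken, which gave 1456 of the 7973 bins of the table, in 1342 loci. RNA was compared between the gemin2 mutant of Arabidopsis thaliana and the Col wild type (WT), in whole plants of 9 days. Stratification was for 4 days at 4 °C in the dark, and growth was then under constant light at 22 °C. There were 3 libraries of polyadenylated RNA per genotype, called A, B and C as in the table's columns. The deposited tables name the allele gemin2-1. Whether each library is a separate culture is not in the labels, so p-values here reflect only how far these libraries spread, which may be technical variation.

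A donor, or 5′ splice site, is the first stretch of an intron and nearly always opens with GT. The U1 snRNP, a particle of U1 RNA and proteins, pairs with the donor across the exon end and the first intron bases, and U6 later takes its place. GEMIN2 belongs to the SMN complex, which loads the ring of Sm proteins onto U1 and most other spliceosomal RNAs.

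The genome bases at the bins showed donors at both ends in most cases. GT stood at both donors in 1265 bins, GC upstream with GT downstream in 116, and GT upstream with GC downstream in 37. The bins ran from 2 to 2004 bases with a median of 19, and the most common length was 4 bases, with 265 bins (18.2%). Of the bins, 1094 lay in coding sequence, 229 in 5′ UTRs, 25 in 3′ UTRs, 99 inside the coding span of a gene without annotated coding sequence, and 9 in noncoding genes.

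The donor pairs of some of the bins that changed are shown because the results refer to them. Coordinates are those of the bin on TAIR10, and the bases are from the RefSeq sequence TAIR10.1 of the nuclear chromosomes. Each run is written along the gene's strand, from 3 bases before the bin to 6 bases after it. Capitals mark the first 2 bases of the bin, where the upstream donor lies, and the first 2 bases after it, at the downstream donor. In ATMS2 the first pair is AT instead of GT. The first 6 lines are coding bins that were higher in gemin2, the next 3 are UTR bins that were higher, and the last 2 are coding bins that were lower.
SNRK2.2, chr3:18742883-18742903, minus strand: aagGTactatttatttctctcaagGTttgt
AT4G13730, chr4:7973614-7973644, plus strand: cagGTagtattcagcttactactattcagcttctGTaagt
AT1G25275, chr1:8861000-8861032, plus strand: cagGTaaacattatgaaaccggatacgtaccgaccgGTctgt
NFD1, chr3:19247436-19247456, minus strand: gagGTaacaattccactaagcaatGTagag
AT3G07565, chr3:2415355-2415381, plus strand: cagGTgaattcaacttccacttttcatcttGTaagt
AT1G22430, chr1:7920499-7920503, plus strand: tagGTaaaGTcgtg
AT3G13120, chr3:4220273-4220288, minus strand: atgGTaacaaacaaaaaaaGTgatc
ATMS2, chr3:957279-957289, plus strand: tagATcttaatccgGTgagt
AT2G05220, chr2:1895934-1895937, minus strand: ccgGTgaGTattc
ATLFNR2, chr1:6943484-6943486, plus strand: aagGTaGTgatt
AT1G67700, chr1:25375713-25375726, plus strand: caaGTaagtataaacagGTactg

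Longer bins in 5′ UTRs are shown by their donors alone, each with 3 exon bases and 6 intron bases.
OBE2 upstream donor, chr5:19530155-19530216, minus strand: ccgGTgagt
OBE2 downstream donor: gagGTaaaa
ATGR1 upstream donor, chr3:8734242-8734317, minus strand: aagGTaaca
ATGR1 downstream donor: cggGTttgt
AT3G05560 upstream donor, chr3:1614269-1614491, plus strand: aagGTacac
AT3G05560 downstream donor: cagGTtttg

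The libraries held 15467372 to 17217408 gene reads in gemin2 and 14049163 to 16732098 in WT, and the alternative 5′ bins drew 89571 to 96833 reads in gemin2 and 84102 to 100205 in WT. The GEMIN2 gene itself had 71, 77 and 74 reads in gemin2, against 239, 262 and 221 in WT (log2 change -1.82, SE 0.0968, edgeR adjusted p = 4.46e-09). In whole plants, fewer cells of a type and less RNA per cell cannot be told apart. All 3 leaf and all 4 root markers were detected, with leaf sums of 400182 to 426447 reads in gemin2 and 347275 to 424807 in WT, and root sums of 2929 to 3291 in gemin2 and 2838 to 3384 in WT. The 3 flower markers summed to 3 to 13 reads in gemin2 and 13 to 14 in WT. The 3 seed markers summed to 7 to 124 reads in gemin2 and 7 to 166 in WT, so they varied within both genotypes. A single 7-base bin of RBCS1A, a small subunit gene of Rubisco, held between 34.8% and 38.0% of all alternative 5′ reads, and its log2 change relative to its gene was 0.02 (edgeR adjusted p = 0.648). Without it, the bins took 0.359, 0.362 and 0.359 reads per 100 gene reads in the gemin2 libraries, against 0.390, 0.388 and 0.387 in the WT libraries, a sum that also moves with the levels of the genes that carry bins.

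Each bin was then read against the reads of its own gene, so that a change means a different share of the gene's reads. Of the 1456 bins, 221 had no read in any library, and 692 in 665 loci (47.5% of all) passed the filter on reads and were tested. Of these, 25 bins in 25 loci passed an adjusted p of 0.05, which is 3.61%, set beside 4.71% over the 4649 tested bins of all event types. In gemin2, 21 of them were higher (3.03%, background 2.6%) and 4 were lower (0.578%, background 2.11%). The 21 higher bins had log2 changes of 0.57 to 6.31 with a median of 1.71, and the 4 lower ones of -3.27 to -0.22. Thus 17 higher and 2 lower called bins of the 692 tested moved by at least 1 on the log2 scale. Among the 4649 tested bins of all event types, 85 higher and 49 lower called bins did so. The median log2 change over the 692 tested bins was 0.02, set beside -0.00 over all tested bins.

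The balance of directions varied among event types, and retained introns also leaned higher. Alternative 3′ bins were called higher 6 times and lower 14 times among 1478 tested, and skipped exons 9 and 20 times among 425. Retained introns were called higher 60 times and lower 34 times among 1277, and bins of several types 25 and 26 times among 777. The share called higher was 4.70% for retained introns and 3.22% for bins of several types, beside 3.03% for alternative 5′ bins. At an unadjusted p of 0.05, 61 of the 692 tested alternative 5′ bins were higher and 20 lower. Over all types, 323 of 4649 tested bins (6.95%) were higher and 303 (6.52%) lower. No test compared the balance between event types.

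**Figure D1:**
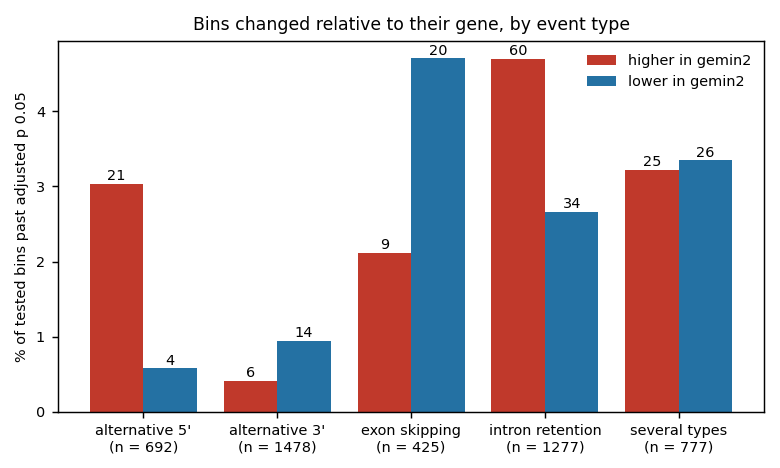
Percent of tested bins past an adjusted p of 0.05 (vertical axis) for each event type, with bars for bins higher in gemin2 and bins lower in gemin2 and the number of bins above each bar. Alternative 5′ bins had 21 higher and 4 lower, and retained introns 60 higher and 34 lower, while alternative 3′ bins had 6 higher and 14 lower.

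The called bins mostly drew a small part of the reads of their genes. The tested bins had a median level of 5.78 reads per 100 reads of the gene, over both genotypes, and the called ones a median of 1.49 with a range of 0.0368 to 10.9. Of the 21 higher bins, 18 lay below the median level of tested bins, and 15 had a WT mean under 1 read per 100 gene reads. A level counts reads that touch the bin over all reads of the gene, so it also depends on the lengths of both and is no isoform share. In 23 of the 25 called bins every library of one genotype lay above every library of the other, the exceptions being CA2 and ACP4. Over all tested alternative 5′ bins, 111 were separated in this way (16.0%, background 18.9%), 69 of them with gemin2 higher (background 9.34%) and 42 with gemin2 lower (background 9.57%). The filter on reads could be met by the 3 libraries of 1 genotype alone. AT4G13730, SNRK2.2, OBE2, ATMS2, AT2G05220 and ATLFNR2 were tested only through the genotype where they are high. Their separation is therefore not independent of the filter.

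**Figure D2:**
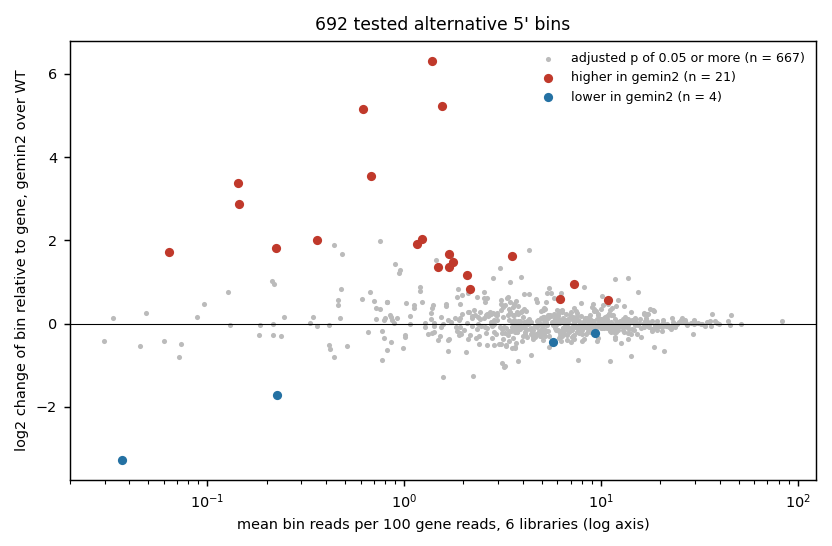
Fitted log2 change of each of the 692 tested bins relative to its gene, gemin2 over WT (vertical axis), against its mean reads per 100 gene reads over the 6 libraries (horizontal log axis). The 21 higher bins sit mainly at low levels, and the fitted changes of the 3 highest points, AT4G13730, OBE2 and SNRK2.2, rest on 0 to 2 WT reads.

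Bins in ribosomal protein genes rose in 4 genes, a group picked after their values were seen. Of 10 tested bins whose gene product is annotated as ribosomal, 4 were called higher and none lower, beside the 3.03% higher among tested alternative 5′ bins and 2.6% among all bins. Of the 4, AT2G05220 and AT2G32060 did not pass with DESeq2 (adjusted p = 0.13 and 0.104). AT3G13120, annotated as an S10p/S20e family protein of the small ribosomal subunit, carries a 16-base bin in its 3′ UTR. It drew 64, 69 and 61 reads in gemin2, against 5, 10 and 1 in WT. All mutant libraries stood far above all WT libraries. The level was 1.25 ± 0.0568 reads per 100 gene reads in gemin2 and 0.101 ± 0.0792 in WT (SD, n = 3 each), a log2 change of 3.55 (SE 0.267, edgeR adjusted p = 3.02e-13).

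AT3G05560, an L22e protein of the large subunit, has a 223-base bin in its 5′ UTR with 59, 77 and 62 reads in gemin2, against 20, 28 and 13 in WT. The libraries of the genotypes did not overlap, and the log2 change was 1.66 (SE 0.187, edgeR adjusted p = 1.95e-08). The 4-base bin of AT2G05220, an S17 family protein, had 8, 9 and 7 reads in gemin2, against 1, 0 and 1 in WT. Here the pair of GT dinucleotides lies 4 bases apart, as its sequence shows, and the ratio of reads per gene read was 12.1 with an exact 95% counting interval of 3.01 to 106. The 56-base 5′ UTR bin of AT2G32060, annotated as a ribosomal protein of the L7Ae/S12e type, had 12, 17 and 15 reads in gemin2, against 0, 7 and 3 in WT (log2 change 2.02, edgeR adjusted p = 0.00559). WT B was the highest WT library, and without it the log2 change was 3.04. Counting intervals here and below cover counting error alone.

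The other called bins are given by the known product of their gene, an order chosen after the calls, with no count or test of such groups. OBE2, a PHD finger protein that acts in the embryo's root meristem, has a 62-base 5′ UTR bin with 31, 37 and 41 reads in gemin2, against 0, 2 and 0 in WT. Every mutant library stood far above every WT library. The ratio of reads per gene read was 43.4 (exact 95% counting interval 11.7 to 363; edgeR adjusted p = 3.36e-10), while the gene's own level rose by a log2 change of 0.21 (edgeR adjusted p = 0.00686). The fitted log2 change of this bin was 5.22, and 8.04 without WT B, which holds the only WT reads.

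SNRK2.2 encodes a protein kinase of abscisic acid signalling, and its 21-base coding bin keeps the reading frame by length. It drew 19, 20 and 17 reads in gemin2, against 0, 1 and 0 in WT. The ratio was 47.6 with an exact 95% counting interval of 8.21 to 1915, and the edgeR adjusted p was 3.76e-07. Both donors of this bin share the exon bases aag. AT4G13730, a Rab GTPase-activating protein of the Ypt/Rab-GAP family, has a 31-base coding bin with 12, 14 and 6 reads in gemin2, against 0, 0 and 0 in WT. With a floor of 3 reads for the WT group, the ratio was 8.99 (edgeR adjusted p = 9.76e-05). Counting error of the gemin2 reads is left out of this ratio, so it is no lower limit.

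TRM3, of the family that recruits TON1 to microtubules, has a 157-base bin with 19, 31 and 28 reads in gemin2, against 3, 6 and 8 in WT. All mutant libraries were higher (log2 change 1.90, SE 0.337, edgeR adjusted p = 0.000131). WLIM2b, an actin-binding LIM protein, has a 36-base 5′ UTR bin at 2.91 ± 0.727 reads per 100 gene reads in gemin2 and 1.27 ± 0.303 in WT (SD, n = 3 each; log2 change 1.16, edgeR adjusted p = 0.000686). In the same gene a pair of bins of several event types fell, by 1.06 and 1.20 on the log2 scale (edgeR adjusted p = 0.00894 and 0.00648). They were the only other called bins among 22 tested in the 25 loci. NFD1, also called HMGB1, a chromatin-bound high mobility group protein, has a 21-base coding bin at 21, 25 and 17 reads in gemin2, against 8, 6 and 8 in WT (log2 change 1.37, edgeR adjusted p = 0.00685). No library of one genotype reached the range of the other.

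ATGR1, a glutathione reductase, has a 76-base 5′ UTR bin with 49, 65 and 50 reads in gemin2, against 17, 15 and 5 in WT. The genotypes were well apart, with a log2 change of 2.03 (SE 0.231, edgeR adjusted p = 2.52e-08), while the gene's log2 change was -0.00 (adjusted p = 0.964). ATMS2, a methionine synthase, has an 11-base bin with 11, 15 and 18 reads in gemin2, against 3, 1 and 1 in WT (log2 change 2.86, SE 0.532, edgeR adjusted p = 0.00027). Its upstream end opens with AT instead of GT, as in 10 of the 1456 bins.

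GOX2, a glycolate oxidase of photorespiration, has a 40-base 5′ UTR bin with 16, 18 and 10 reads in gemin2, against 6, 2 and 6 in WT (log2 change 1.71, edgeR adjusted p = 0.0085). The mutant libraries were all above WT. FTSZ2-1, which forms the ring that divides chloroplasts, has a 338-base 5′ UTR bin at 2.78 ± 0.582 reads per 100 gene reads in gemin2 and 1.55 ± 0.0919 in WT (SD, n = 3 each; log2 change 0.83, edgeR adjusted p = 0.00779). AT1G22430, annotated as an alcohol dehydrogenase-like protein, has a 5-base coding bin with 11, 21 and 23 reads in gemin2, against 6, 12 and 8 in WT (log2 change 1.36, edgeR adjusted p = 0.00783). Its reads overlap between genotypes but its shares do not, since the gene itself fell by 0.41 on the log2 scale (edgeR adjusted p = 3.8e-05).

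The 4-base bin of CA2, a beta carbonic anhydrase, rested on 1 library, with 152, 8 and 17 reads in gemin2, against 21, 21 and 18 in WT. In reads gemin2 B and C lay below every WT library, and as a share of the gene's reads gemin2 B did, at 0.0472 per 100, while gemin2 C, at 0.102, lay within the WT range of 0.0921 to 0.11. The log2 change was 1.81 (edgeR adjusted p = 0.0202), and -0.41 without gemin2 A (edgeR adjusted p = 0.733). PKT1, a 3-ketoacyl-CoA thiolase of peroxisomal fatty acid breakdown, was the bin closest to the threshold from inside (log2 change 0.60, edgeR adjusted p = 0.045). Its 107-base bin had fewer reads in gemin2, with 40, 49 and 30, against 37, 73 and 71 in WT, while the gene fell further, by 1.33 on the log2 scale (edgeR adjusted p = 1.89e-08).

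Higher bins in loci without a gene name in the tables were AT1G31300 (142 bases, 5′ UTR, log2 change 0.95), AT4G39420 (2004 bases, 0.57), AT1G25275 (33 bases, 1.48) and AT3G07565 (27 bases, 1.63). Their libraries did not overlap. The bin of AT4G39420 was the longest of all 1456 and had the highest level of the 25 called, not corrected for length. It drew 13.1 ± 0.937 reads per 100 gene reads in gemin2 and 8.74 ± 1.34 in WT (SD, n = 3 each, edgeR adjusted p = 0.000789). AT3G07565 drew 17, 12 and 12 reads in gemin2, against 4, 2 and 5 in WT (edgeR adjusted p = 0.0209). The bins just outside the threshold were AT2G04039 with 4, 6 and 8 reads in gemin2 against 5, 1 and 3 in WT (edgeR adjusted p = 0.0613), and ATARI5, of the Ariadne family of ubiquitin ligases, with 29, 29 and 33 against 13, 8 and 10 (edgeR adjusted p = 0.0741).

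**Figure D3:**
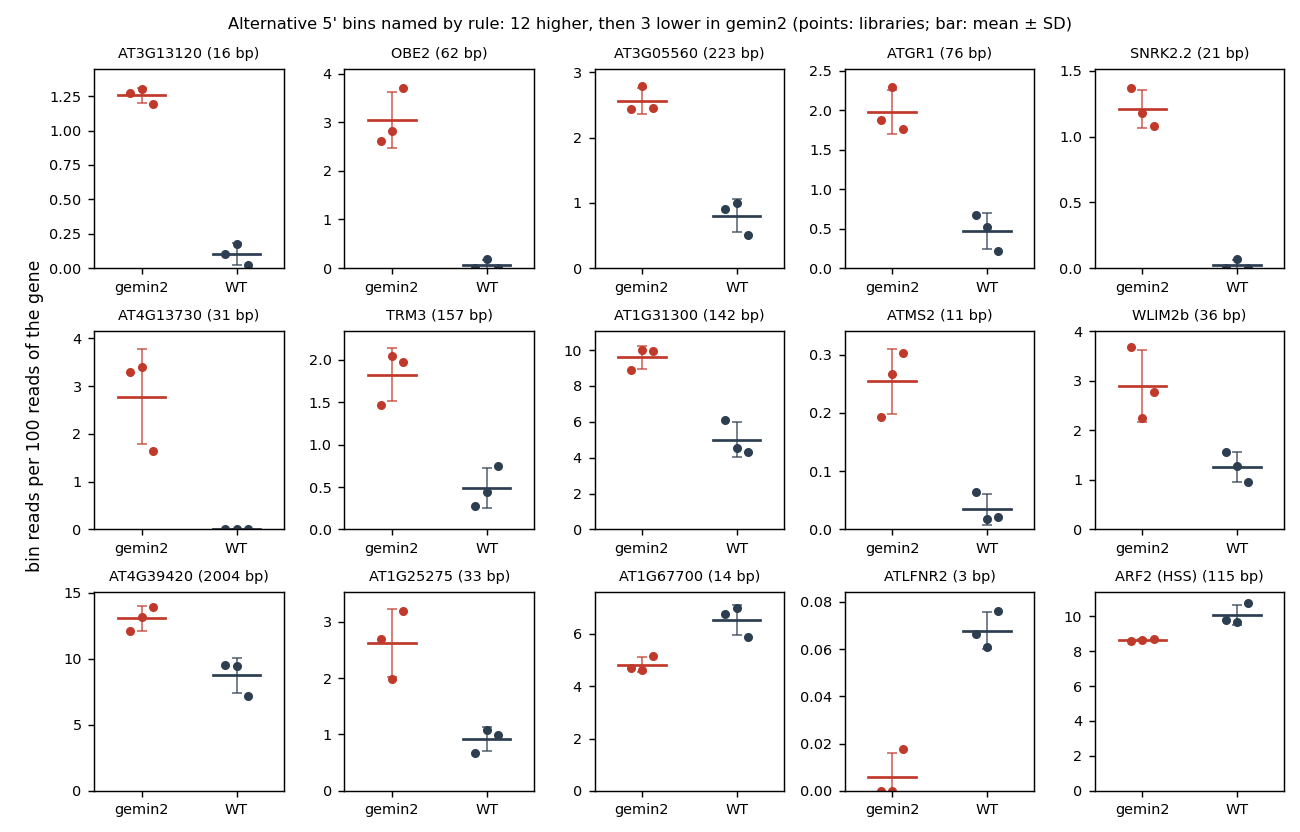
Reads of the bin per 100 reads of its gene (vertical axes from 0, a different scale in each panel) in the 3 gemin2 and 3 WT libraries, with mean and SD, for 12 higher and 3 lower bins. AT4G13730, OBE2 and SNRK2.2 had 0 to 2 reads in all WT libraries together, and ATLFNR2 had 2 in all gemin2 libraries.

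The 4 lower bins were in ATLFNR2, AT1G67700, ACP4 and ARF2. ATLFNR2, a leaf ferredoxin-NADP reductase, has a 3-base coding bin with 0, 0 and 2 reads in gemin2, against 9, 9 and 10 in WT, of 32702 gene reads in gemin2 and 41505 in WT. WT had 11.0 times the gemin2 share, with an exact 95% counting interval of 2.78 to 95.6 (edgeR adjusted p = 0.00526). Another alternative 5′ bin of the same gene, with more reads, had a log2 change of -0.02. AT1G67700, also called HHL1 and named for sensitivity to high light, has a 14-base coding bin with 175, 191 and 210 reads in gemin2, against 244, 292 and 203 in WT. As a share of the gene it was 4.83 ± 0.298 per 100 reads in gemin2 and 6.55 ± 0.571 in WT (SD, n = 3 each), without overlap (log2 change -0.44, SE 0.0824, edgeR adjusted p = 0.000278).

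ACP4, an acyl carrier protein of fatty acid synthesis in leaves, had 8, 7 and 5 reads in gemin2, against 6, 16 and 33 in WT, so its groups overlapped. The log2 change was -1.71 (edgeR adjusted p = 0.00752), and -0.98 without WT C (edgeR adjusted p = 0.358). The 115-base coding bin of ARF2, an auxin response factor listed as HSS in the table, changed by -0.22 (edgeR adjusted p = 0.0205), with 8.63 ± 0.0577 reads per 100 gene reads in gemin2 and 10.1 ± 0.591 in WT (SD, n = 3 each).

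With DESeq2, 12 of these 25 bins passed an adjusted p of 0.05, 11 higher and 1 lower. AT1G25275, AT2G05220, AT2G32060, NFD1, FTSZ2-1, AT1G22430, GOX2, CA2, AT3G07565, PKT1, ATLFNR2, ACP4 and ARF2 did not. When each library was left out in turn, 15 of the 25 passed every edgeR fit. The call was lost for NFD1 without WT B (edgeR adjusted p = 0.0566), for FTSZ2-1 without gemin2 A (0.0887) and for ATLFNR2 without gemin2 B (0.0579). GOX2 lost it without WT B (0.104) or gemin2 B (0.0828), ACP4 without WT C (0.358) or gemin2 C (0.0758), and AT1G22430 without WT A (0.0581), gemin2 B (0.0512) or gemin2 C (0.0862). Among these 6 fits, CA2 passed only without gemin2 B or gemin2 C, AT3G07565 only without WT C or gemin2 B, ARF2 only without WT A or WT B, and PKT1 only without WT B.

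The donor bases were compared with the consensus CAGGTAAGT, counting matches among 9 positions at each donor in the direction of the gene. Among the 21 higher bins the upstream donor matched better in 10, the donors were equal in 7, and the downstream donor matched better in 4. Among all 692 tested bins, the counts were 156, 151 and 385. Thus 6.41% of tested bins with the better upstream donor were higher in gemin2, 4.64% of those with equal donors and 1.04% of those with the better downstream donor. Among the 4 higher bins of the last class, ATMS2 has AT and PKT1 has AG at the upstream end, so no GT donor was scored there. A G stood directly before the bin in 20 of the 21 higher bins (95.2%) and in 58.7% of the tested ones. With an upstream donor this is the last exon base, but the 20 include ATMS2 and PKT1, which have no GT there. These shares were not tested, and match class moves with level, with median levels of 3.11, 4.64 and 7.24 reads per 100 gene reads in that order. Below the median level the shares called higher were 8.41% (9 of 107), 7.06% (6 of 85) and 1.95% (3 of 154).

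**Figure D4:**
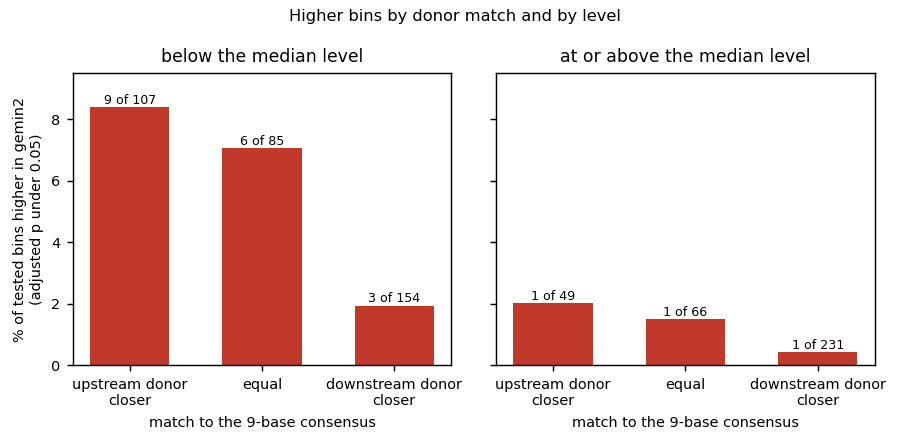
Percent of tested bins called higher in gemin2 (vertical axis) by which donor matches the 9-base consensus more closely, separately for bins below the median level and for the others, with counts above the bars. Below the median the shares were 8.41%, 7.06% and 1.95%, and above it each class held 1 higher bin.

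Calls were also counted by position in the gene, again with no test of the shares. In 5′ UTRs 10 of 138 tested bins were higher (7.25%) and none lower, and in coding sequence 10 of 510 were higher (1.96%) and 4 lower. The 5′ UTR bins had lower levels, with medians of 3.17 reads per 100 gene reads in 5′ UTRs and 6.85 in coding sequence. Below the median level, 9 of 105 5′ UTR bins (8.57%) and 8 of 214 coding bins (3.74%) were higher. By length, 5 of 278 coding bins were higher where the length is a multiple of 3, 3 of 125 where 1 base remains and 2 of 107 where 2 remain. Of the 4-base bins, the most frequent class, 55 were tested and 2 were higher, AT2G05220 and CA2.

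Reads of a retained intron also fall into the bin at its upstream end, so the intron that begins where a bin ends was tested beside it where the intron table held it. For 107 of the 692 tested bins the abutting intron was tested too, and 17 of these introns were called (11 higher, 6 lower), beside a background of 9.4% called and 5.93% higher over all tested introns. Of 7 higher bins with a tested intron, 4 had an intron that was also higher. The intron of AT3G05560 had 41, 27 and 17 reads in gemin2, against 3, 1 and 6 in WT (log2 change 3.01, edgeR adjusted p = 0.0015). The introns of TRM3, AT1G22430 and GOX2 rose by 1.19, 1.24 and 1.32 on the log2 scale (edgeR adjusted p = 0.00134, 0.0178 and 0.00689). The FTSZ2-1 intron had 22, 21 and 23 reads in gemin2, against 13, 13 and 11 in WT (log2 change 0.70, edgeR adjusted p = 0.103), beside 0.83 for its bin. The AT2G05220 intron had 23, 24 and 18 reads in gemin2, against 12, 12 and 22 in WT (log2 change 0.51, edgeR adjusted p = 0.312), more reads than its bin had. The third was that of AT1G25275, at a log2 change of -0.16 (edgeR adjusted p = 0.877). From bin reads alone, a downstream donor used more and an unspliced intron cannot be told apart, and 14 of the 25 called bins had an abutting intron in the table used here.

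Other bins rose with few reads in the abutting intron. The AT1G31300 intron drew 2, 1 and 0 reads in gemin2 and none in WT, against 44, 58 and 58 bin reads in gemin2. ATMS2 had 0, 2 and 4 intron reads in gemin2, against 1, 3 and 3 in WT, and the AT3G07565 intron had none in gemin2, against 2, 1 and 1 in WT. The WLIM2b intron had 1 read in gemin2 C and none elsewhere, and that of AT2G32060 1 in gemin2 B, 1 in WT A and 1 in WT B. The introns of the lower bins of ATLFNR2 and AT1G67700 varied within both genotypes, with 2, 20 and 2 reads in gemin2 and 32, 5 and 24 in WT for ATLFNR2, and 3, 50 and 8 in gemin2 and 69, 13 and 56 in WT for AT1G67700. In both introns gemin2 B was the highest mutant library and WT B the lowest WT library. Across the 107 pairs, Pearson's r between the changes was 0.293 and Spearman's rho 0.273, a description across loci that share the 6 libraries and the gene counts.

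**Figure D5:**
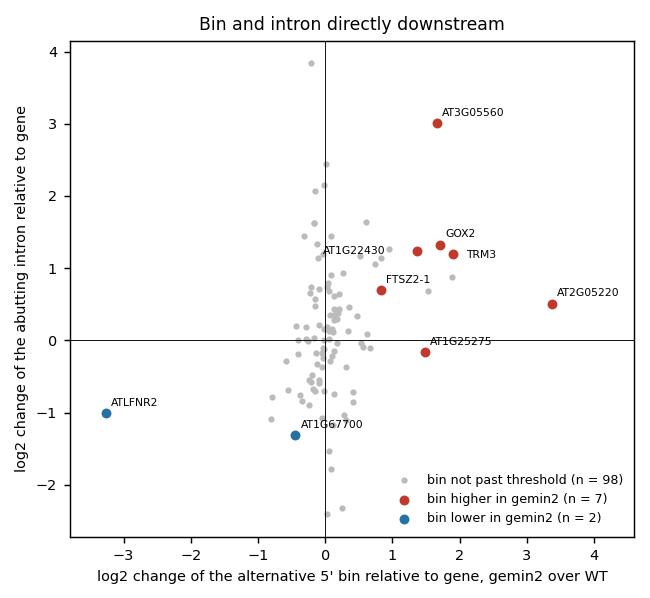
Log2 change relative to the gene of the intron directly downstream (vertical axis) against that of the alternative 5′ bin (horizontal axis), gemin2 over WT, for 107 pairs that were both tested. Of the 7 higher bins, 4, AT3G05560, TRM3, AT1G22430 and GOX2, have a called higher intron.

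At the gene level, of the 665 loci, 294 were called (44.2%, background 36.7% of 20762 genes), 134 of them higher and 160 lower. The 665 loci also had to pass filters on gene and bin reads that the background did not, so the shares may differ in depth. Of the 25 loci with a called bin, 9 were called at the gene level (3 higher, 6 lower), and 20 had a gene log2 change within 0.3 of 0.

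The factors that read the donor were examined as genes. Of 14 genes for 5′ splice site recognition, 6 were higher, 3 were lower and 5 did not pass, with a median log2 change of 0.12. Over all 20762 genes tested, 17.8% were higher and 18.9% lower. U1-70K, the U1 protein that contacts SR proteins, fell by 0.53 on the log2 scale (edgeR adjusted p = 2.84e-06), and U1A, another U1 protein, rose by 0.17 (edgeR adjusted p = 0.0398), a call lost with DESeq2 (adjusted p = 0.125) and when any library but WT B was left out (edgeR adjusted p of 0.0506 to 0.16). The U1-associated proteins LUC7A and LUC7B rose by 0.31 and 0.32, PRP40A by 0.28 and PRP40C by 0.24 (for PRP40C, DESeq2 adjusted p = 0.0658), while PRP39B fell by 0.49 and RBM25 by 0.41. PRP8A, which sits at the heart of the spliceosome, rose by 0.45 (edgeR adjusted p = 5.35e-06). None of these genes has an alternative 5′ bin in the table.

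The 4 further lists are given beside the same shares over all genes, 17.8% higher and 18.9% lower, and none was tested as a list. In them, 4 of 20 SR proteins were higher and 5 lower, 6 of 12 RNA-binding splicing regulators higher and 3 lower, 11 of 20 circadian clock genes higher and 2 lower, and 2 of 5 nonsense-mediated decay genes higher and none lower. These lists hold 8 tested alternative 5′ bins, and none passed the threshold or an unadjusted p of 0.05 with edgeR. The 49-base bin of the U2AF subunit ATU2AF65A, for example, had 8.86 ± 0.647 reads per 100 gene reads in gemin2 and 8.03 ± 0.858 in WT (SD, n = 3 each), with overlapping libraries.

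The authors' deposited table of changed bins lists 40 alternative 5′ bins. By its log2 splicing index ratio, 33 were higher and 7 lower in the mutant. Its bin false discovery rates run up to 0.0947, above the threshold of 0.05 used here. Of the 40, 20 were also called here, which is 50% of that list and 80% of the 25. All 20 had the same sign as the splicing index ratio. The authors' log2 fold change of the bin itself is another measure, and for PKT1 it was -0.69, against 0.60 relative to the gene here. In that table, 17 further bins were tested here without passing and 3 were not tested, and 5 bins called here are not in it. Both lists come from the same 6 libraries.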

How the data were processed

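Raw counts of genes, splicing bins and introns were deposited, each bin with its event type. A deposited table of the authors' own comparison holds log2 fold changes of bins, log2 splicing index ratios and adjusted p-values, per the file headers. Per the submitters' processing notes, the build was TAIR10 and the tools were R 3.0.2, TopHat2 2.0.9 and edgeR 3.4.2. The counting tool, its use of strand and the place of bin reads in gene counts were not given in the sources used. The intron table used here ends at 65535 introns, which leaves out chromosome 4, chromosome 5 and the end of chromosome 3.

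Bins of all event types were fitted together with edgeR 4.0.16 in R 4.3.3 (quasi-likelihood test, two-sided, gemin2 over WT), with the log of the gene's count as offset, a minimum bin count of 5, a mean of at least 20 gene reads, and Benjamini-Hochberg adjustment at 0.05. Genes used TMM and a minimum count of 10, and introns the bins' settings. The SE is the log2 change over the square root of F. Ratios of bins with at most 3 reads in a genotype use an exact 95% counting interval, or a floor of 3 reads over the group. The fits were also run on simulated counts with the same spread for every bin and gene. That run does not cover bins whose reads hang on a single library.

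Named bins are the 12 higher and 12 lower without overlap that lead by change over SE (3 lower qualified), and the 2 nearest the threshold on each side. Other called bins were named after their values were seen. The members and the gene lists (5′ splice site recognition, SR proteins, RNA-binding splicing regulators, circadian clock, nonsense-mediated decay) were chosen with earlier results of these data known. Alternatives were DESeq2 1.42.0, other filters and offsets, a robust fit, a replicate block and leaving out each library. Of the 1342 loci, 608 were named from the deposited tables and 62 from RefSeq.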

Additional observations from a re-analysis of the deposited data

How the results depend on the processing

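The 25 called bins (21 higher, 4 lower) became 12 (11 higher, 1 lower) with DESeq2, 12 (10 higher, 2 lower) with a minimum bin count of 20, which kept 403 bins in the test, and 89 (43 higher, 46 lower) with no gene offset, where a bin also moves with its gene. The 12 bins of DESeq2 and the 12 of the stricter filter were all among the 25. Leaving out each library in turn gave 21 to 25 called bins, 17 to 21 higher and 2 to 5 lower, the 2 without gemin2 C; 15 of the 25 passed in all 6 of these fits, and 12 of the 15 also with DESeq2. Those 12 hold AT3G13120, OBE2, AT3G05560, ATGR1, SNRK2.2, AT4G13730, TRM3, AT1G31300, ATMS2, WLIM2b and AT4G39420, all higher, and AT1G67700, lower. The direction turned for PKT1 with no gene offset (-0.72) and for CA2 without gemin2 A (-0.41), whose other values without 1 library reached 2.33 without gemin2 B. ATLFNR2 reached -6.11 without gemin2 C, which holds its only gemin2 reads. With no filter 30 bins were called, with a robust fit 24, and with the bin's reads taken off the gene count or overlapping bins left out 25. In the replicate block on the column letter, 25 bins were called, the same 25. The letters are not tied to the samples' replicate numbers, and same-letter libraries did not deviate together (correlations of -0.00555, -0.0156 and -0.0578). Of the genes for 5′ splice site recognition, U1A and PRP40C did not pass with DESeq2. Depth limits the bins with few reads, where the genotypes' totals can hang on 1 library; bins under the filter were not tested, and levels are not corrected for the lengths of bins and genes.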
